A study of Mus musculus with 6 samples.

Results

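The introns described here are the 4545 introns of 100 nt or less among the 68322 introns listed in all 4 total RNA libraries of the series. An intron was 1 combination of chromosome, strand, start and end, and its length was the number of bases between the exon ends that flank it. No read count entered the choice beyond the listing itself, for which every junction had at least 10 reads. The 4545 introns lay in 2354 of 9844 genes, were 36 to 100 nt long with a median of 87 nt, and 4306 of them lay between coding exons. A further set brought the number of introns of this length listed in any library to 5632, and introns missing from 1 or more libraries were not used.

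The libraries came from E14 mouse embryonic stem cells of 129/Ola background, a line grown in serum with leukemia inhibitory factor. All cells were transfected with lipoplexes of Lipofectamine2000 that carried an siRNA against Son or a control siRNA, and RNA was taken 24 hours later. Each group had 2 libraries of total RNA depleted of ribosomal RNA and 1 of Nanopore long-read cDNA. Untransfected cells were not analysed here, so both groups share the transfection, and nothing in the labels says whether replicates were separate cultures, so p-values may reflect technical spread alone.

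Most mammalian introns are long and are recognised through their exons, with splicing factors pairing across the exon. Very short introns leave little room between the 5′ splice site, the branch point and the 3′ splice site, and are thought to be recognised as one unit across the intron, often in gene-dense, GC-rich parts of the genome. SON is a large protein of nuclear speckles with a domain rich in serine and arginine, and is known as a cofactor for the splicing of introns with weak splice sites.

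For 4527 of these introns the adjoining exons could be taken from the mouse GENCODE transcripts of release M21, by transcript identifier, intron number and length. That release uses the GRCm38 build, while the tables use GRCm39 per the submitters' processing notes, and intron bases were not used here. The sequences below are the exon sides of 5 introns with large losses of splicing after knockdown and of 3 introns that were spliced almost fully in every library. Each joins the last 30 bases of the upstream exon to the first 30 of the downstream exon, 5′ to 3′ on the transcribed strand. Capitals mark the last 3 bases before and the first base after the intron, the exon part of the splice sites.
Dgat1 intron 9: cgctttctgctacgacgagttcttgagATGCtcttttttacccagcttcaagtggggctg
Fanca intron 33: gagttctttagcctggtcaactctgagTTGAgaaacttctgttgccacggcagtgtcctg
Rtel1 intron 18: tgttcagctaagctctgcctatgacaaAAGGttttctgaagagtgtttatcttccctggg
Sars2 intron 4: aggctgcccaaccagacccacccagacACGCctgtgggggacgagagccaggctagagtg
Irf3 intron 3: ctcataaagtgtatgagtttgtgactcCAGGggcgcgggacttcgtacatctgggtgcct
Rps7 intron 2: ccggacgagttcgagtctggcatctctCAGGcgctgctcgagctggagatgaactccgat
Rpl13 intron 2: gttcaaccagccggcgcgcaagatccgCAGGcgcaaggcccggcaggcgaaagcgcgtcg
Eef2 intron 6: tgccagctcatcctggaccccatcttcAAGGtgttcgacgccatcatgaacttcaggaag
The first of these introns lies at chr15:76387629-76387717 on the minus strand (GRCm39), between coding exons of Dgat1. The others lie at chr8:124001136-124001206 (Fanca, minus), chr2:180991370-180991461 (Rtel1, plus), chr7:28446307-28446383 (Sars2, plus) and chr7:44649488-44649577 (Irf3, plus). The fully spliced ones lie at chr12:28685487-28685578 (Rps7, minus), chr8:123829502-123829583 (Rpl13, plus) and chr10:81015286-81015377 (Eef2, plus). All 8 lie between coding exons. The 3 fully spliced introns follow an upstream exon that ends in AG, as do the introns shown of Irf3 and Rtel1, and the Fanca, Sars2 and Dgat1 exons end in other bases. Over all short introns this difference had no counterpart in the calls given below: 8.17% of those after an exon that ends in AG and 8.48% of the others had a called fall.

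The deposited tables give for each junction the reads that cross it split, over the joined exons, and unsplit, into the intron. Splicing efficiency is the share of split reads among all reads at both junctions of an intron. A read split over the intron crosses both junctions and is counted at each. Read counts given below for single introns are sums over both junctions. The libraries held 10556187 to 16012286 split reads at 5′ junctions. Son itself, the target, had 4376 and 3251 such reads in the controls against 1380 and 1061 in the knockdown. As CPM, reads per 1000000 split reads of the library, these were 273 and 306 against 92.1 and 100.5, a log2 fold change of -1.61 (SE 0.09, edgeR adjusted p = 3.72e-10). Of 17 marker genes of embryonic stem cells 15 were listed, at 6625 to 6897 CPM in sum. The single listed fibroblast marker of 8 (Thy1) reached at most 2.14, the single primitive endoderm marker of 6 (Gata4) at most 2.81, and none of 6 markers of cells resembling the early embryo was listed.

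Short introns were spliced less completely in both knockdown libraries than in either control. Their mean splicing efficiency was 0.902 and 0.889 in the controls against 0.860 and 0.840 in the knockdown. The groups did not overlap, with means of 0.895 ± 0.00944 and 0.850 ± 0.0144 (SD, n = 2 each) and a difference of -0.0456. The exact two-sided permutation test gave p = 0.333, the smallest value that 2 against 2 samples allow. For the 63777 introns over 100 nt the same means were 0.903 and 0.893 against 0.895 and 0.878, a difference of -0.0116 (exact permutation p = 0.667). These groups overlap, as knockdown replicate 1 lay above control replicate 2. Each knockdown library still lay below the control of the same replicate number. Within each library, short introns stood -0.00257 ± 0.00231 from longer ones in the controls and -0.0365 ± 0.00221 in the knockdown (SD, n = 2), so the gap between the classes was wider in both knockdown libraries (exact permutation p = 0.333).

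The 100 nt limit marked no step. The difference between knockdown and control was -0.0553 for the 991 introns of 36 to 80 nt, -0.0450 for 2031 introns of 81 to 90 nt and -0.0401 for 1523 introns of 91 to 100 nt. Just inside the limit, at 96 to 100 nt, it was -0.0463, and just outside, over the next 5 nt, it was -0.0413. It stayed at -0.0419 over 100 and up to 150 nt and at -0.0324 over 150 and up to 300 nt, then came to -0.0129 over 300 and up to 1000 nt and -0.00314 over 3000 nt. Against introns over 100 and up to 150 nt alone, short introns stood -0.00592 ± 0.00109 away in the controls and -0.00963 ± 0.000673 in the knockdown (SD, n = 2), a change of -0.00371. The groups did not overlap on that measure either (exact permutation p = 0.333), but the change is far smaller than the one against all longer introns.

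**Figure D1:**
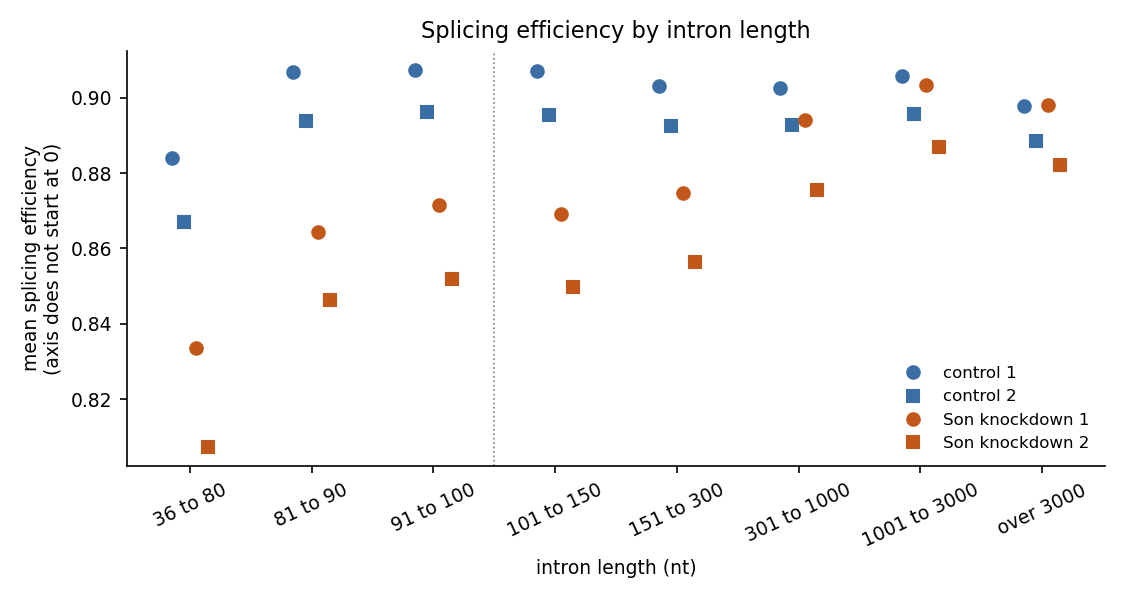
Mean splicing efficiency (vertical axis, share of split reads, not starting at 0) of introns grouped by length in nt (horizontal axis), 1 point per library; the dotted line marks the 100 nt limit. Both knockdown libraries lie below both controls in each class up to 300 nt, and the groups overlap in the classes over 300 nt. Up to 3000 nt each knockdown library still lies below the control of the same replicate number, and over 3000 nt only replicate 2 does.

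Single introns were tested on their split and unsplit reads with edgeR over all introns, and an intron was called where the Benjamini-Hochberg adjusted p was under 0.05. The effect is a log2 odds ratio, above 0 where the knockdown had more unsplit reads per split read. Of 4253 short introns with enough reads, 352 (8.28%) had a called fall in splicing efficiency and 1 a called rise. Over all 63309 introns tested, 1.71% had a called fall and 0.0442% a called rise. Short introns were 6.72% of the introns tested and 32.5% of those with a called fall. Their median log2 odds ratio was 0.48, against 0.12 over all introns. Of the introns over 100 and up to 150 nt, 7.35% had a called fall, and 1.12% without control replicate 1.

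The number of calls rested on which libraries were used. Without control replicate 1, 71 short introns had a called fall (1.73%, against 0.27% of all introns), and without control replicate 2 or knockdown replicate 2 there were 176 and 216. DESeq2 called 119, all of them among the 352 and all falls (0.456% of all introns). With limma on the log2 odds none was called, and 913 of 4253 short introns had a fall and 50 a rise at an unadjusted p under 0.05. Over all 63309 introns limma had 5773 at that cut, falls and rises together. A count that needs no model showed both knockdown libraries below both controls in 1843 short introns (40.6%; 23.6% of all introns), and both above in 381 (8.38%; 13.0% of all introns).

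Among the 352 introns the median splicing efficiency was 0.946 in the controls and 0.772 in the knockdown, with a median change of -0.173. In 56 of them the knockdown mean was under 0.5, so that fewer than 1 in 2 junction reads were split. Both kinds of reads moved. For introns, CPM sums the reads of both junctions over the library's split reads at 5′ junctions, so these values are not on the scale used for Son. In CPM, the mean of split reads at these introns was 35.2 and 35.8 in the controls against 23.7 and 22.0 in the knockdown. That of unsplit reads was 1.81 and 2.23 against 4.50 and 5.22. Over all 4545 short introns the means were 40.2 and 40.9 against 38.2 and 37.6 for split reads, and 1.98 and 2.41 against 2.52 and 2.99 for unsplit reads, where groups did not overlap either. Because the 352 were chosen on these reads, their means are a description.

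Both ends of the intron took part. At the 5′ junction alone the mean efficiency of short introns differed by -0.0437 between knockdown and control, and at the 3′ junction alone by -0.0452. Tested alone, 98 of 3689 introns had a called fall at the 5′ junction (2.66%; 0.462% of all introns) and 115 of 3763 at the 3′ junction (3.06%; 0.608% of all introns). Of these, 61 were called at both, 37 at the 5′ junction only and 54 at the 3′ junction only. Among the 352 called on the sum, 327 could be tested at both junctions and 326 of them had a log2 odds ratio above 0 at both. The 352 were chosen on the sum of these same reads, which favours that outcome, so the count is a description. A read split over the intron, or one that spans the whole of it unsplit, counts at both ends, so the junctions do not give independent counts. The summed counts entered the main test as if they were separate reads. With the mean of both junctions in their place, 467 of 3863 short introns tested had a called fall.

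The 12 largest called falls, at most 1 per gene, lay in genes of varied function. Groups without overlap were a condition of this choice, and all 352 introns with a called fall had them. Dgat1, which codes for an enzyme of the last step of triglyceride synthesis, stood first. Its intron 9 (89 nt) had a splicing efficiency of 0.894 and 0.851 in the controls against 0.317 and 0.203 in the knockdown. The controls had 202 and 63 split with 24 and 11 unsplit reads, and the knockdown 26 and 14 split with 56 and 55 unsplit reads. The groups lay far apart, with a log2 odds ratio of 4.33 (SE 0.64, edgeR adjusted p = 9.14e-07). Dgat1 had 6 short introns, of which 5 had a called fall. Its neighbouring introns 8 and 7 went from 0.850 and 0.795 to 0.265 and 0.191, and from 0.879 and 0.711 to 0.272 and 0.254. Intron 15 of the same gene, at 0.941 and 0.917 against 0.870 and 0.898, was not called. With each library left out in turn, 3 to 5 of the Dgat1 introns were called, 3 of them without control replicate 1.

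Fanca codes for a subunit of the Fanconi anaemia core complex, which repairs DNA crosslinks. Its intron 33 (71 nt) was at 0.864 and 0.857 in the controls against 0.490 and 0.315 in the knockdown (log2 odds ratio 3.18, SE 0.49, edgeR adjusted p = 1.88e-06). Intron 34, 1 exon further on, was at 0.928 and 0.878 against 0.605 and 0.502. Both Fanca introns separated the groups, and both were called with each library left out. Rtel1, a helicase needed for telomere stability, had 0.740 and 0.812 against 0.329 and 0.332 at its intron 18 (92 nt; log2 odds ratio 2.81, SE 0.43, edgeR adjusted p = 1.54e-06). The knockdown libraries were nearly equal there, and lay far below both controls.

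The other 9 of the 12 largest falls had log2 odds ratios of 2.93 to 4.11. Sars2, the mitochondrial seryl-tRNA synthetase, had 0.938 and 0.903 in the controls against 0.550 and 0.407 in the knockdown at intron 4 (77 nt). Aldh16a1, of the aldehyde dehydrogenase family, had 0.942 and 0.929 against 0.434 and 0.554 at intron 11 (78 nt). Amdhd2, a deacetylase of amino sugars, had 0.787 and 0.876 against 0.510 and 0.274 at intron 6 (81 nt). These 3 introns were split in 0.787 or more of the control reads and in 0.554 or less of the knockdown reads.

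Irf3 codes for a transcription factor of the interferon response, and its intron 3 (90 nt) was at 0.816 and 0.697 against 0.310 and 0.259. Rgl2, an exchange factor for Ral proteins, was at 0.738 and 0.684 against 0.291 and 0.183 at intron 5 (82 nt). Pomgnt1, a glycosyltransferase that acts on dystroglycan, was at 0.758 and 0.784 against 0.304 and 0.139 at intron 11 (82 nt). In these 3, most control reads were split and most knockdown reads were unsplit. Ano8, of the anoctamin family, was at 0.778 and 0.957 against 0.160 and 0.446 at intron 9 (96 nt), and the 1700061G19Rik gene at 0.658 and 0.779 against 0.192 and 0.236 at intron 7 (89 nt). Ptprn, a receptor-like phosphatase of secretory vesicles, was at 0.795 and 0.659 against 0.281 and 0.0571 at intron 14 (100 nt). The replicates of Ano8 and Ptprn lay far apart within the groups. Of the 12, the calls of Irf3, Ptprn and Sars2 were lost without control replicate 1 (edgeR adjusted p = 0.256, 0.0529 and 0.0603) and that of Ano8 without control replicate 2 (0.113). At the 5′ junction alone Irf3 and Ano8 were not called (edgeR adjusted p = 0.140 and 0.0526).

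**Figure D2:**
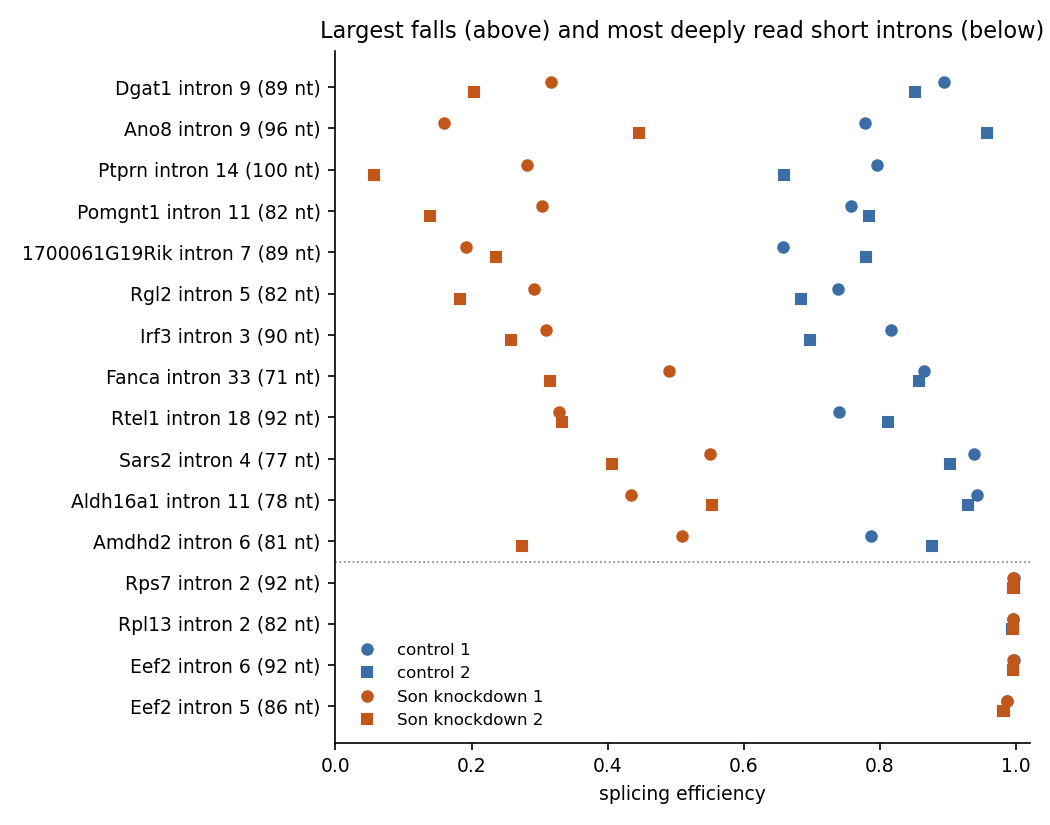
Splicing efficiency (horizontal axis, share of split reads from 0 to 1) of the 12 short introns with the largest called falls (above the dotted line) and of 4 of the 5 short introns with the most reads (below it), 1 point per library. The upper 12 were chosen with knockdown points left of the control points without overlap. All points of the lower 4 lie at 0.981 or above.

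Of the 5 most deeply read short introns, the 4 given here were spliced almost fully in every library. They lie in genes of the ribosome and of translation, which are among the most abundant transcripts of these cells. Rps7 intron 2, in a gene of the small ribosomal subunit, was at 0.996 and 0.997 in the controls against 0.995 and 0.996 in the knockdown, and Rpl13 intron 2, in a gene of the large subunit, at 0.995 and 0.994 against 0.995 and 0.995. Eef2, the factor that moves the ribosome along the message, had 0.997 and 0.996 against 0.995 and 0.995 at intron 6 and 0.987 and 0.981 against 0.986 and 0.982 at intron 5. In none of the 4 was a difference called (edgeR adjusted p = 0.383 to 0.996), with log2 odds ratios of -0.09 (SE 0.21) in Rpl13 to 0.51 (SE 0.23) in Eef2 intron 6. The 3 shortest introns of at least 60 nt with 50 reads in every library were not called either. Zwilch, a kinetochore protein, had 0.820 and 0.779 against 0.795 and 0.753 at its 64 nt intron 2. The 63 nt intron 10 of Syce1, of the synaptonemal complex, was at 0.964 and 0.971 against 0.971 and 0.982. The 61 nt intron listed for Gm17134 had 2 split reads in control replicate 1 and none elsewhere, beside 1740 to 2565 unsplit reads. Syce1 and Gm17134 had too few reads of 1 kind for the test.

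The 7 introns under 60 nt were looked at after their values were seen. Most were hardly spliced, or differed little between the groups. Those listed for Gm29542 (36 nt) and Fxyd4 (41 nt) had at most 3 split reads in any library, and the 54 nt intron of Ube3a, a ubiquitin ligase gene, had at most 7. Intron 7 of Hnrnph1 (56 nt), an RNA-binding protein gene, was at 0.868 and 0.874 against 0.883 and 0.874, and intron 3 of Abi1 (41 nt), of the actin-regulating WAVE complex, at 0.683 and 0.596 against 0.670 and 0.492. The single called fall was the first intron of Ifrd2 (53 nt), at 0.846 and 0.776 in the controls against 0.570 and 0.474 in the knockdown (log2 odds ratio 1.98, SE 0.48, edgeR adjusted p = 0.00697, and 0.409 without control replicate 1 or 0.0565 without knockdown replicate 2). For Gm17096 (37 nt) the controls alone ranged from 0.0851 to 0.545. The one called rise, also singled out after its value was seen, was intron 3 of Srrd (79 nt, chr5:112487684-112487762). It had 40 and 18 split with 23 and 14 unsplit reads in the controls, and 96 and 46 split with 6 and 4 unsplit reads in the knockdown. Efficiencies of 0.635 and 0.562 thus stood against 0.941 and 0.920 (log2 odds ratio -3.16, SE 0.83, edgeR adjusted p = 0.0184, DESeq2 adjusted p = 0.189).

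Longer introns of the same genes lost nearly as much splicing as the short ones. In 2241 genes with both classes, the mean over genes of short introns differed by -0.0356 between knockdown and control and that of longer introns by -0.0299. Within a library, short introns stood -0.00363 ± 0.000339 from the longer introns of the same gene in the controls and -0.00930 ± 0.000433 in the knockdown (SD, n = 2), a change of -0.00566 without overlap (exact permutation p = 0.333). Against introns over 100 and up to 300 nt of the same gene, in 1638 genes, the gap was -0.00460 ± 0.000347 in the controls and -0.00540 ± 0.000188 in the knockdown, a change of -0.000796. Against introns over 1000 nt, in 1784 genes, it was -0.00243 ± 0.000332 and -0.0144 ± 0.000740 (SD, n = 2), a change of -0.0120. The groups did not overlap in either comparison (exact permutation p = 0.333 in both), and the difference between these changes was not tested.

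A test of the difference within each gene called none of 2120 genes (0.0%), with edgeR or with DESeq2. At an unadjusted p under 0.05, edgeR had 91 genes in which short introns lost more and 50 in which they lost less. The median difference in log2 odds ratio was 0.01, with 5% to 95% of genes from -1.17 to 1.26 and a median standard error of 0.57, so differences of about 1 in a single gene were not detectable. The lowest adjusted p, 0.0837 in edgeR, was shared by Dop1b, a large membrane trafficking protein (difference 3.39, SE 0.83), Ift140, of intraflagellar transport (3.70, SE 0.92), and Aldh16a1 (2.61, SE 0.65). Srrd came next with a difference of the opposite sign (-4.31, SE 1.09, edgeR adjusted p = 0.0875), and its short intron is the called rise given above. Dop1b was called without control replicate 2 and Ift140 without knockdown replicate 1. Across the 2120 genes the log2 odds ratios of short and longer introns had a Spearman correlation of 0.571 and a Pearson correlation of 0.573. This is a description across genes, whose 2 values share the libraries and the gene's own coverage.

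**Figure D3:**
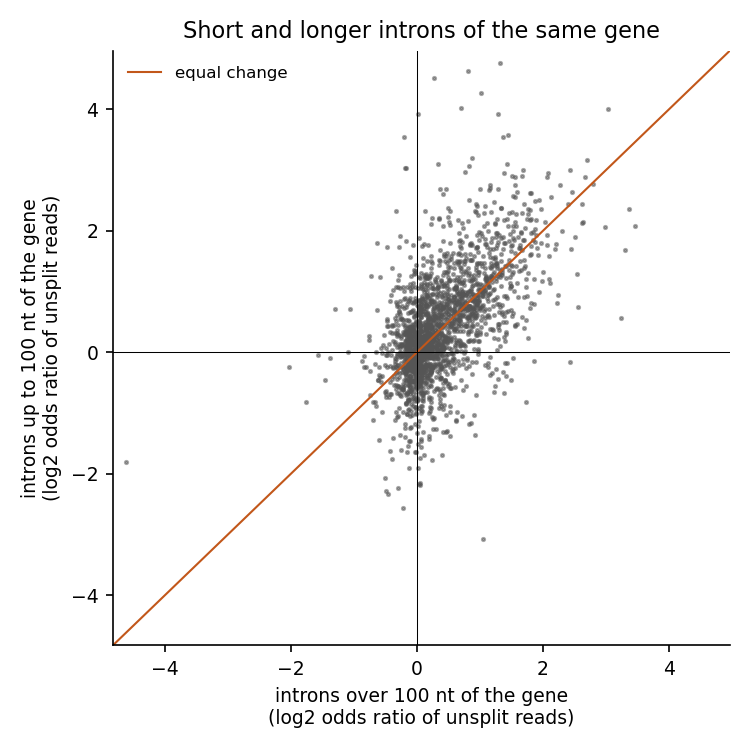
Log2 odds ratio of unsplit reads, knockdown against control, over all short introns (vertical axis) and all introns over 100 nt (horizontal axis) of the same gene, 1 point for each of 2120 genes, with the line of equal change. Points spread on both sides of the line, and genes with higher values for longer introns also have higher values for short ones.

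Longer introns of the 226 genes with a called short intron also had called falls. These genes were chosen by calls in the same 4 libraries, so the share is a description. The share with a called fall was 1.24% over all introns over 100 nt and 7.35% over 100 and up to 150 nt. For introns over 100 nt in genes with 5 or more short introns it was 7.88%. Of 2047 other introns over 100 nt tested in the 226 genes, 311 (15.2%) had a called fall as well, with a median log2 odds ratio of 1.04. The count was 42 without control replicate 1, 133 without control replicate 2 and 182 without knockdown replicate 2. In the 221 of these genes with both classes tested, the within-gene difference had a median of 0.51 (quartiles 0.14 and 1.00), the short introns losing more, a direction that the choice of genes by a called short intron favours. In 69 of the genes at least 2 short introns were called. Flna, which crosslinks actin filaments, led with 8 of 20 short introns and 7 of 21 longer ones. Hspg2 (perlecan) had 7 of 17 and 17 of 74, Agrn (agrin) 6 of 12 and 4 of 18, both proteins of basement membranes. Piezo1, a mechanosensitive ion channel, had 6 of 14 and 8 of 27, and Map4k1, a protein kinase, 6 of 7 and 5 of 16. These 5 genes were chosen for their number of called short introns. Without control replicate 1 the numbers of called short introns were 3 in Flna, 1 in Hspg2, 2 in Agrn, 1 in Piezo1 and 0 in Map4k1, without control replicate 2 they were 6, 3, 4, 3 and 3, and without knockdown replicate 2 they were 6, 3, 4, 2 and 3.

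The mean over the 7 short introns of Map4k1 was 0.948 and 0.938 in the controls against 0.732 and 0.649 in the knockdown, and over its longer introns 0.929 and 0.911 against 0.788 and 0.732. For the 20 of Flna it was 0.962 and 0.957 against 0.911 and 0.896, beside 0.964 and 0.965 against 0.920 and 0.922 for its longer introns. Both classes separated the groups in both genes. The within-gene difference was 0.82 (SE 0.48) in Map4k1 and 0.38 (SE 0.35) in Flna (edgeR adjusted p = 0.778 and 0.956). Inside Flna the short introns varied widely: intron 7 (83 nt) was at 0.971 and 0.942 against 0.793 and 0.758, while intron 45 (84 nt) of Flna was at 0.981 and 0.962 against 0.977 and 0.970.

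The loss was larger in genes with many short introns. In genes with 1 short intron the mean efficiency of that intron was 0.878 and 0.866 in the controls against 0.854 and 0.834 in the knockdown, a difference of -0.0283. With 2, 3 or 4, and 5 or more short introns the differences were -0.0410, -0.0520 and -0.0644, the last from 0.927 and 0.911 to 0.866 and 0.844. Groups did not overlap in any of these 4 classes. Within a library, introns of genes with 5 or more stood 0.0474 ± 0.00302 above those of genes with 1 in the controls and 0.0113 ± 0.00118 in the knockdown (SD, n = 2, exact permutation p = 0.333). The share of introns with a called fall was 3.76%, 6.03%, 8.97% and 14.7% in these 4 classes. From the first to the last it went from 0.47% to 3.47% without control replicate 1, from 1.89% to 8.01% without control replicate 2 and from 2.28% to 9.43% without knockdown replicate 2.

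Introns over 100 and up to 300 nt ran much the same way by the number of short introns in their gene, though they are not counted in it. Their differences were -0.0226 in genes with none, then -0.0370, -0.0502, -0.0492 and -0.0580. The share with a called fall went from 2.32% in genes with none to 12.1% in genes with 5 or more, from 0.33% to 1.37% without control replicate 1 and from 0.62% to 4.76% without control replicate 2. Genes with 5 or more short introns listed a median of 19 introns, and genes with none a median of 4. The GC content of their exons differed too, and the differences by exon GC are given next.

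**Figure D4:**
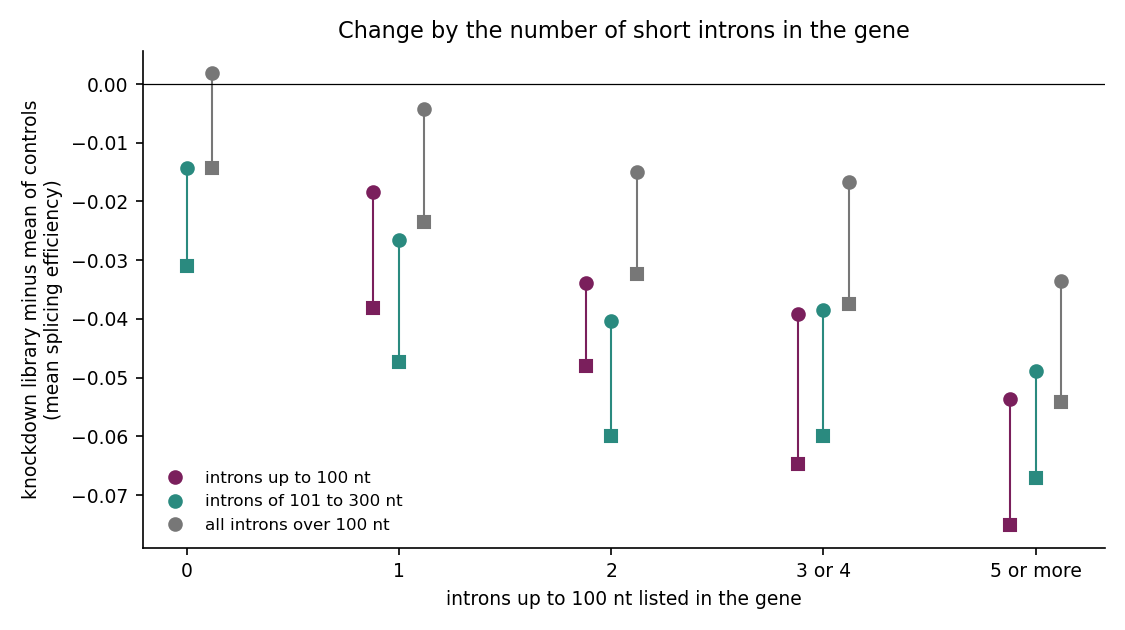
Mean splicing efficiency of each knockdown library minus the mean of the controls (vertical axis) by the number of short introns listed in the gene (horizontal axis), for introns up to 100 nt, introns over 100 and up to 300 nt, and all introns over 100 nt; circles are knockdown replicate 1, squares replicate 2. Short introns go from a mean of -0.0283 in genes with 1 to -0.0644 in genes with 5 or more, and the other classes are also lowest in genes with 5 or more.

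The GC content of the flanking exons, over up to 100 bases on each side of the intron, parted the short introns more than length did. In the quintile of introns with the lowest exon GC, up to 47.5%, the mean efficiency was 0.896 and 0.890 in the controls against 0.899 and 0.882 in the knockdown, groups that overlap, with a difference of -0.00220. In the following quintiles, parted at 53, 56 and 59% GC, the differences were -0.0360, -0.0531, -0.0676 and -0.0730, and the groups did not overlap in any of these 4. The highest quintile was at 0.904 and 0.891 against 0.836 and 0.813. Highest minus lowest quintile within a library was 0.00462 ± 0.00480 in the controls and -0.0662 ± 0.00465 in the knockdown (SD, n = 2, exact permutation p = 0.333). Called falls made up 1.05% of the lowest quintile and 11.1% of the highest, or 0.12% and 2.21% without control replicate 1, 0.24% and 6.14% without control replicate 2, and 0.48% and 7.67% without knockdown replicate 2.

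The quintiles differed in depth as well, from a median of 312 junction reads per library in the lowest to 181 in the highest. Median exon GC was 54.5% for short introns, 56.5% for those with a called fall and 50.5% for all introns. Introns over 1000 nt beside exons of over 59% GC had a difference of -0.0119, and those beside exons of up to 47.5% one of -0.00190. For introns over 100 and up to 300 nt these were -0.0595 and -0.00498. High exon GC thus went with a larger difference in every length class examined, and the difference at high GC was larger in the 2 classes up to 300 nt.

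The number of short introns in the gene and exon GC overlapped without being the same. In genes with 1 or 2 short introns, the difference was -0.0156 for introns with exon GC up to the median and -0.0610 above it. In genes with 3 or more it was -0.0402 and -0.0723. The 2 classes up to the median were not matched for exon GC, with medians of 48.5% in genes with 1 or 2 short introns and 51% in genes with 3 or more. Above the median both classes had a median of 58.5%. Each of the 4 classes had both knockdown libraries below both controls. By position in the transcript the differences were -0.0350 for 157 first introns, -0.0481 for 407 last introns and -0.0458 for the introns between. First introns were spliced less in the controls already, at 0.783 and 0.777.

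**Figure D5:**
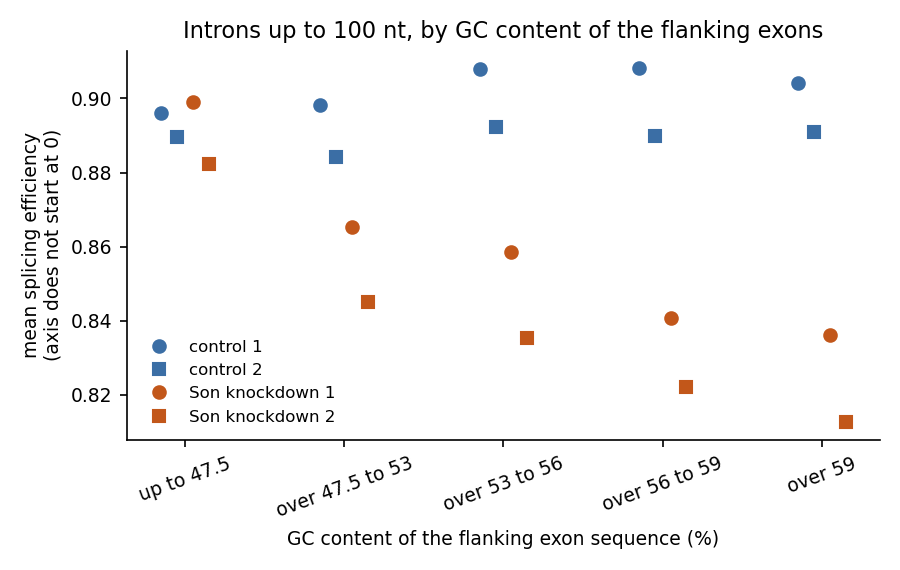
Mean splicing efficiency (vertical axis, share of split reads, not starting at 0) of short introns in quintiles of the GC content of the flanking exon sequence in percent (horizontal axis), 1 point per library. Control points stay between 0.884 and 0.908, while the knockdown points go from 0.899 and 0.882 in the lowest quintile to 0.836 and 0.813 in the highest.

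Short introns were then read by the function of their genes, on lists of known pathway members chosen with earlier results of these data known. Their shares are thus a description, beside 8.28% of all short introns tested and a median log2 odds ratio of 0.48. At an unadjusted p under 0.05 in edgeR, 1099 of 4253 short introns had a fall and 65 a rise. Over all 63309 introns tested these were 5135 and 1019. DNA repair genes had a called fall in 18 of 72 short introns (25.0%), with a median of 0.95, in 10 genes that include Fanca, Rtel1, Mus81, Pold1, Recql4 and Xrcc1. Without control replicate 1 the count was 4, and without control replicate 2 it was 7. Mus81 is a nuclease of branched DNA, and its intron 15 (78 nt), outside the coding region, was at 0.734 and 0.833 against 0.458 and 0.259. It was called narrowly (edgeR adjusted p = 0.0466) and lost with either control or knockdown replicate 2 left out (0.229 to 0.428). Of 31 short introns in transcripts reported elsewhere to depend on SON, 8 (25.8%) had a called fall, in 5 genes that include Cdk10, Ehmt2, Fanca and Hdac6, while 3 did without control replicate 1 and 5 without knockdown replicate 2. Cdk10, a cell cycle kinase, was at 0.847 and 0.775 against 0.455 and 0.300 at intron 4 (95 nt, edgeR adjusted p = 0.00657, and 0.318 without control replicate 1).

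Lipid and inositol metabolism had 21 of 87 (24.1%), with a median of 1.05, in 10 genes that include Dgat1, the fatty acid synthase gene Fasn, the regulator Srebf1 and the inositol synthase gene Isyna1. Without control replicate 1 the count was 8. Enzymes of the lysosome and of glycans had 6 of 37 (16.2%) and the highest median of the lists, 1.54, with 23 falls at an unadjusted p under 0.05 and 3 calls without control replicate 2. Galactokinase, Galk1, was at 0.965 and 0.847 against 0.542 and 0.320 at intron 7 (88 nt). Arsa, which degrades sulfatides, was at 0.939 and 0.886 against 0.538 and 0.588 at intron 4 (93 nt), and Man2b1, a lysosomal mannosidase, at 0.661 and 0.703 against 0.423 and 0.273 at intron 8 (83 nt). All 3 separated the groups, and none was called without control replicate 1 (edgeR adjusted p = 0.393, 0.0693 and 0.0977), when 1 intron of the list was. Man2b1 was also lost without control replicate 2 or knockdown replicate 2 (edgeR adjusted p = 0.136 and 0.102).

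Basement membrane and cytoskeletal linker genes held 182 tested short introns, of which 27 (14.8%) had a called fall, in Agrn, Flna, Hspg2, Itgb4, Lama5, Plec and Plxnb2. Without control replicate 1 there were 7, and without control replicate 2 or knockdown replicate 2 there were 16. In Agrn, intron 4 (90 nt) was at 0.885 and 0.825 against 0.593 and 0.533, with 992 and 542 split reads in the controls, and was called with each library left out. Its intron 3 (70 nt) was at 0.922 and 0.885 against 0.694 and 0.744 (edgeR adjusted p = 0.00375, and 0.322 without control replicate 1). Plxnb2, a semaphorin receptor, was at 0.731 and 0.796 against 0.444 and 0.0938 at intron 20 (99 nt, edgeR adjusted p = 0.0207, and 0.185 to 0.286 without either control or knockdown replicate 2). The tRNA synthetase genes had 7 of 39 (17.9%), in Aars2, Qars, Sars2 and Vars, and 2 or 3 without control replicate 1 or 2. The median log2 odds ratio of the tRNA synthetase list was 0.42, below the 0.48 of all short introns. Vars, which charges valine tRNA, was at 0.977 and 0.962 against 0.850 and 0.783 at intron 12 (84 nt). Aars2, of mitochondrial alanine tRNA, was at 0.953 and 0.985 against 0.716 and 0.653 at intron 13 (97 nt). Vars was called with each library left out, and Aars2 was lost without either control (edgeR adjusted p = 0.0678 and 0.0980).

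Other lists lay nearer to the share of all short introns. Chromatin modifiers had 12 of 111 (10.8%), in Dnmt1, Ehmt2, Hdac6, Kat5, Kdm6b, Kmt2b and Uhrf1, with 2 and 6 left without control replicate 1 and 2, and 3 without knockdown replicate 2. Hdac6, a deacetylase of tubulin, was at 0.969 and 0.981 against 0.781 and 0.766 at intron 5 (99 nt) and was called with each library left out. Kat5, a histone acetyltransferase, was at 0.725 and 0.585 against 0.450 and 0.140 at intron 10 (77 nt), with an edgeR adjusted p of 0.0190 that became 0.514 without control replicate 1 and 0.472 without knockdown replicate 2. The histone demethylase gene Kdm6b was at 0.932 and 0.982 against 0.855 and 0.533 at intron 21 (85 nt), and its call was lost without control replicate 2 or knockdown replicate 2 (edgeR adjusted p = 0.322 and 0.329).

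Cell cycle and spindle genes had 5 of 54 (9.26%), with 15 falls at an unadjusted p under 0.05 in edgeR, beside 1099 of all 4253 short introns. The edgeR count was 0 without control replicate 1, and 2 without control replicate 2 or knockdown replicate 2. Tubgcp6, of the gamma-tubulin ring, was at 0.887 and 0.827 against 0.618 and 0.615 at intron 21 (76 nt, edgeR adjusted p = 0.0239, and 0.0709 to 0.568 without either control or knockdown replicate 2). Central carbon metabolism had 3 of 39 (7.69%), and 1 without control replicate 1. Of these, introns 4 and 9 of the mitochondrial isocitrate dehydrogenase gene Idh2, were at 0.986 and 0.978 against 0.901 and 0.887, and at 0.974 and 1 against 0.905 and 0.923. G6pdx, the first enzyme of the pentose phosphate pathway, was at 0.994 and 0.982 against 0.953 and 0.932 at intron 11 (93 nt). Each of these 3 introns lost its call with at least 1 library left out: Idh2 intron 4 (edgeR adjusted p = 0.0829) and G6pdx (0.629) without control replicate 1, and Idh2 intron 9 without control replicate 2 (0.476).

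The transcription machinery had 3 of 65 (4.62%), and none without either control or with DESeq2 (18 falls had an unadjusted p under 0.05 in edgeR with all libraries, and 1 was called without knockdown replicate 2). They were introns 3 and 6 of Ercc2, a helicase of TFIIH, at 0.982 and 0.989 against 0.935 and 0.745, and at 0.942 and 0.917 against 0.735 and 0.786, and intron 29 of the elongation factor gene Supt5, at 0.986 and 0.983 against 0.965 and 0.952. Splicing regulators had 2 of 63 (3.17%), with a median of 0.07, or 0, 1 and 1 without control replicate 1, control replicate 2 and knockdown replicate 2. They were Clk2, a kinase of SR proteins, at 0.663 and 0.622 against 0.228 and 0.217 at intron 9 (83 nt, edgeR adjusted p = 0.000318, and 0.0581 without control replicate 1), and Son itself. The 97 nt intron 6 of Son was at 0.515 and 0.578 against 0.307 and 0.216 (edgeR adjusted p = 0.0413, and 0.259 to 0.434 without either control or knockdown replicate 2). Its split reads numbered 140 and 137 against 39 and 22 and its unsplit reads 132 and 100 against 88 and 80, so both kinds were fewer in the transcript that the siRNA targets. Genes of the ribosome and proteasome had none of 31 called by edgeR or DESeq2, with a median of 0.01 and 3 falls and 1 rise at an unadjusted p under 0.05. Markers of embryonic stem cells had none of 5 called by either tool, with 0 falls and 1 rise at an unadjusted p under 0.05.

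The share of host genes with a called fall in spliced reads was higher in each class with more short introns. Spliced reads of a gene are split reads at the 5′ junctions of all its introns. With bulk RNA a smaller share of cells that express a gene and less RNA per cell cannot be told apart. Less splicing of the gene's introns also lowers this count, and it was not told apart from less RNA. Over all 9474 genes tested with edgeR, 6.76% had a called fall and 1.96% a called rise. The median log2 fold change of spliced reads was 0.02 in genes with no short intron. It was -0.03, -0.09, -0.11 and -0.31 in genes with 1, 2, 3 or 4, and 5 or more. The shares with a fall were 3.02% of genes with no short intron, then 10.5%, 23.2%, 31.9% and 51.9% in the same order. Genes with none and with 5 or more were at 1.19% and 37.7% without control replicate 1, 1.27% and 30.5% without control replicate 2, and 8.66% and 63.0% without knockdown replicate 1. Of the 226 genes with a called short intron 177 (78.3%) had a called fall (125 to 189 with a library left out), but split reads of these introns enter both counts. More introns per gene also give more reads to test, and the part of that in these shares was not tested.

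The long reads, 1 library per group and therefore without a replicate check, ran in the same order. The control library held 3080426 reads and the knockdown library 1874851, and gene ratios were taken on reads scaled to the library total with a pseudocount of 0.5 reads. The median log2 ratio of knockdown to control was 0.01 in genes with no short intron, then -0.05, -0.11, -0.14 and -0.26 with 1, 2, 3 or 4, and 5 or more. The 210 genes with a called short intron and at least 20 long reads had a median of -0.40. Rtel1 had 218 reads in the control and 56 in the knockdown (log2 ratio -1.23), Amdhd2 had 89 and 20 (-1.41), and Agrn 40 and 22 (-0.13). Dgat1 had 24 and 7. Among the genes of the 12 largest falls, 1700061G19Rik with 25 and 22 reads (0.54) and Ano8 with 44 and 32 (0.26) had ratios above 0. The deposited label of the long-read control names a knockdown sample as its starting material, so its link to the total RNA replicates is unclear. Long reads on transcript models that keep a short intron could not be counted, since only 1 of the 4527 matched introns had such a model of the same gene.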

How the data were processed

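SPLICE-q made the intron tables, per the labels. They hold deposited read counts, split or unsplit, per junction, and a score that is the fraction of split reads, checked on the tables. For long reads, counts per transcript were deposited by the authors. The submitters' processing notes name GRCm39, SAMtools and minimap2. The aligner of the short reads, the SPLICE-q settings and counting by strand are not given in the sources used here, so values of overlapping antisense genes are uncertain.

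Introns were reduced to unique positions, and junction counts were summed. The median tested short intron had 226 junction reads per library. edgeR 4.0.16 (R 4.3.3, quasi-likelihood) fitted the split and unsplit columns of each library, with library and read kind as terms, and tested the interaction of read kind with the knockdown. It took all introns with at least 10 split and 10 unsplit reads, with Benjamini-Hochberg adjustment at 0.05. The SE given with an edgeR estimate is approximate: the absolute estimate over the square root of its quasi-likelihood F statistic. DESeq2 1.42.0, limma 3.58.1, single junctions, other filters and scalings, other length limits and each library left out were alternatives. Scripts were tested on simulated data. Library means were compared with exact two-sided permutation tests (scipy 1.17.1). Spliced reads per gene were tested with edgeR after TMM normalization. The 67 short introns listed under more than 1 gene stayed out of sums per gene.

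The introns, gene lists and tests were chosen with earlier results of these data known. Named are the 12 largest called falls with 50 reads in every library and groups that do not overlap (1 per gene). No rise met that rule. Also named are the 5 introns with most reads, the 3 shortest of at least 60 nt and the 5 genes with most called falls. Up to 3 called introns per list were added. The introns of 2 genes that the rule names are not reported here, and they stay in the counts.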

Additional observations from a re-analysis of the deposited data

How the results depend on the processing

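The 352 called falls among short introns remained within 1.5 times of that number, at 249 to 495, with other read minimums, with split and unsplit reads scaled separately, with the mean of both junctions, without introns listed under more than 1 gene and with a length limit of 90 or 120 nt. The number was 119 with DESeq2, 0 with limma, 98 at the 5′ junction alone, 115 at the 3′ junction alone and 81 with a limit of 80 nt, which tests 942 introns. With each library left out in turn it ranged from 71 to 403. Under separate scaling the median over all introns went from 0.12 to -0.01 on the log2 scale, and that over short introns from 0.48 to 0.35. The difference in mean efficiency kept its sign, from -0.0165 (pooled reads) to -0.0558 over all alternatives, and -0.0354 to -0.0558 with a library left out. Short minus longer introns kept its sign too, with -0.00371 against introns over 100 and up to 150 nt and -0.0204 for medians. The comparisons by exon GC and by number of short introns, with alternatives chosen after seeing the data, kept theirs. No named intron changed sign among 39 called, and in alternatives other than limma they were called again in 399 of 498 cases. The cause of these shifts was not tested. With 2 libraries a group and short introns of about 226 reads per library, small changes of single introns were not detectable.

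The labels link samples across groups only by replicate number, and deviations of same-numbered samples correlated at 0.01 over all introns. Same-numbered libraries were alike in depth: 16012286 and 14978479 split reads at 5′ junctions for replicate 1, 10640247 and 10556187 for replicate 2. Mean efficiency of short introns was also lower in replicate 2 of both groups. A correlation over introns does not measure a shift that all introns share. With the replicate number as a block, 482 short introns had a called fall, and the within-gene comparison called 1 gene, Fanca, against 0 without it and 0 to 1 with a library left out. The block left the log2 fold change of Son at -1.61. By replicate number, the difference in mean efficiency was -0.0421 and -0.0491, and that of short minus longer introns -0.0340 and -0.0339. Their means equal the values without the block, -0.0456 and -0.0339, by construction, so they give no check.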
